A study of Danio rerio with 3 samples.

Results

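The cells described here are the 127 zebrafish scale cells that held at least 1 UMI of il2rb and fewer than 2 UMIs in all of FP236331.1, nitr4a and ccl20a.3, called the signature genes below. A UMI is a counted RNA molecule. The members were chosen on their il2rb and signature counts, so the levels of those 4 genes describe the choice and are not results. The 127 cells, called signature-low il2rb cells, made up 32.5% of the 391 scale cells that passed the cell filters (95% exact binomial interval 27.9% to 37.4%), and 5948 cells passed in the whole series. Every interval given here covers counting error only.

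The study sequenced lymphocytes cell by cell from thymus, kidney marrow and scale, each as 1 droplet library without a replicate. All fish carried lck:GFP, a transgene with green fluorescent protein under the promoter of lck, a kinase of T and natural killer lymphocytes. Thymus cells were sorted for high GFP, and scale and marrow cells for low GFP, so the sort itself limits which lymphocytes could enter. No sort separated il2rb cells from others, and age, the number of fish pooled and any treatment other than anaesthesia with tricaine methanesulfonate are not given in the sources used here. Other groups of cells were set beside the members. Within the scale, 183 cells (46.8%) held FP236356.1 (trbc1, the constant segment of the T cell receptor beta chain) and no il2rb, and they are called il2rb-negative trbc1 cells. Another 43 scale cells (11%) held il2rb and 2 or more signature UMIs and are called signature-high il2rb cells. The same rule found 363 of 983 marrow cells (36.9%, 33.9% to 40.0%) and 25 of 4574 thymus cells (0.547%, 0.354% to 0.806%).

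il2rb encodes the beta chain of the receptors for interleukin-2 and interleukin-15, which T cells and natural killer cells use to survive and multiply. In mammals, cells with much of this chain include memory and cytotoxic T cells, natural killer cells and lymphocytes that reside in epithelia. Cytotoxic lymphocytes kill through granzymes, which are proteases, and through pore-forming perforins and membrane-damaging NK-lysins, while chemokines are secreted proteins that attract other leukocytes.

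Among the 127 members, il2rb ran from 1 to 12 UMIs per cell with a median of 2, and 31 cells stood at the minimum of 1. The signature genes were at 0 in 123 members, and the other 4 held 1 UMI. The median depth was 3847 UMIs in the members (range 533 to 12729), 3492 in signature-high il2rb cells, 3162 in il2rb-negative trbc1 cells, 4446 in the marrow cells and 4658 in the thymus cells. A deeper cell is more likely to show 1 UMI of il2rb, and the part of this in the choice of cells was not tested. The members held 516674 UMIs in all, and levels are given as summed UMIs per 1000000 UMIs of the group (CPM). At that depth 3 UMIs correspond to 5.81 CPM. No member's barcode occurred in another library. Scrublet, a doublet caller, marked 5 members and 16 of the 391 scale cells, and no marrow or thymus cell.

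A leukocyte marker was present in nearly all members and a T cell marker in most. ptprc, which encodes the leukocyte surface phosphatase CD45, had a UMI in 121 of the 127 cells, and trbc1 had one in 107 (84.3%). The 20 members without trbc1 were shallower, with a median of 1851.5 UMIs. Of 16 T cell markers, 14 had a UMI in the members, at a summed 1434 CPM against 2337 in il2rb-negative trbc1 cells, which were chosen for trbc1. The coreceptor genes were rare: cd4-1 had 6 UMIs and cd8a 2. Markers of thrombocytes and of pigment cells were at 0 in the members, and erythroid markers had 2 UMIs. B cell markers had 103 UMIs, 90 of them from the kinase gene blk. Of 22 macrophage or dendritic markers, 12 had a UMI, at a summed 1417 CPM from 107 of the members (84.3%), against 1487 in il2rb-negative trbc1 cells, 1450 in signature-high il2rb cells and 1699 in the marrow cells. Of the 732 UMIs, 341 were from cd74a and 233 from cd74b, which encode the invariant chain of class II molecules. Keratinocyte markers stood apart, at 685 CPM (616 to 760) in the members against 132 in il2rb-negative trbc1 cells, 67.6 in signature-high il2rb cells and 167 in the marrow cells. Of 19 keratinocyte genes 9 had a UMI, and icn, zgc:77517 (krt18b) and krt8 gave 236, 67 and 35 of the 354 UMIs. The keratinocyte genes epcam and cdh1 were at 0 in the members, krt5 had 8 UMIs and krt4 had 1.

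Of the given markers, csf2rb set part of the members apart from other scale cells and cd99 did not. csf2rb encodes the beta chain shared by the receptors for GM-CSF, interleukin-3 and interleukin-5 in mammals. It was at 157 CPM (124 to 195) in the members, 24.6 in signature-high il2rb cells, 5.27 in il2rb-negative trbc1 cells, 20.8 in the marrow cells and 18.6 in the thymus cells, the last from 3 UMIs. The ratio to il2rb-negative trbc1 cells was 29.8 (9.83 to 147) and rests on 3 UMIs in those cells, and the ratio to signature-high il2rb cells was 6.38 (2.40 to 24.0). Only 26 members held it, and 13 cells carried 77.8% of its UMIs. cd99, which encodes a surface glycoprotein of leukocytes, was at 281 CPM in the members, 277 in il2rb-negative trbc1 cells (ratio 1.01, 0.80 to 1.28) and 332 in signature-high il2rb cells. In the marrow cells cd99 was at 29.5, so its contrast lay between the 2 libraries (ratio 9.5, 6.86 to 13.3) and not among scale lymphocytes.

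**Figure D1:**
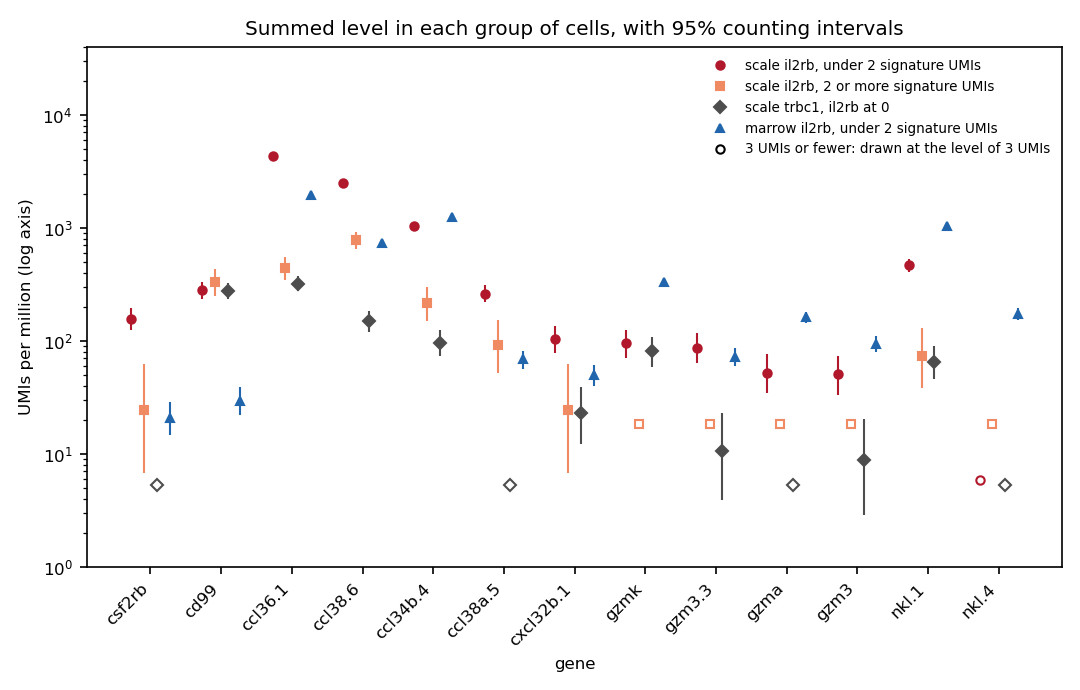
Summed CPM (log axis) of the given markers, 5 chemokine ligand genes, 4 granzyme genes and 2 NK-lysin genes in 4 groups of cells, 1 library per tissue; bars are 95% exact Poisson intervals, and open symbols mark 3 UMIs or fewer. ccl36.1 stood at 4326 in signature-low il2rb cells of the scale and at 321 in il2rb-negative trbc1 cells, while cd99 stood at 281 and 277.

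Chemokine ligand RNA was higher in the members than in il2rb-negative trbc1 cells. ccl36.1 was at 4326 CPM in the members (4148 to 4509), 321 in il2rb-negative trbc1 cells, 442 in signature-high il2rb cells, 1942 in the marrow cells and 0 in the thymus cells. The ratio to il2rb-negative trbc1 cells was 13.5 (11.6 to 15.7). ccl38.6 was at 2487 against 149 in il2rb-negative trbc1 cells (ratio 16.7, 13.4 to 21), and ccl34b.4 at 1041 against 96.6 (ratio 10.8, 8.16 to 14.5). All 3 ratios exceeded 10. ccl38a.5 was at 261 CPM, from 135 UMIs, against 1 UMI in the comparison cells (ratio 149, 26.3 to 5922). cxcl32b.1, a CXC chemokine gene, was at 105 against 22.8 (ratio 4.58, 2.47 to 9.15). Of 49 chemokine ligand genes in the annotation, 5 had the 50 UMIs needed for comparison. These 5 were all over 2-fold higher than in il2rb-negative trbc1 cells, with a median log2 ratio of 3.73. The UMIs are counted over both groups, so a gene can enter through the group where it is high, as ccl38a.5 did. ccl36.1 and ccl38.6 had 183 and 85 UMIs in the comparison cells alone. Over all 1976 genes compared there, 223 (11.3%) were over 2-fold higher and 71 (3.59%) over 2-fold lower, and the median log2 ratio was 0.21. ccl20a.3, a signature gene, is not among the 5.

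Chemokine RNA was spread unevenly over the members. ccl36.1 had a UMI in 83 cells, with a median of 8 UMIs over all members and up to 108 in a cell. ccl38.6 was found in 68 members and ccl34b.4 in 55. Of these 3 genes, 24 members held none, 27 held 1, 49 held 2 and 27 held all 3. With every cell thinned to 1000 UMIs, ccl36.1 had a UMI in 63.0% of members, 5.88% of il2rb-negative trbc1 cells, 16.7% of signature-high il2rb cells and 48.2% of marrow cells, and 8 members were too shallow to enter. The unthinned shares were 65.4%, 9.29%, 23.3% and 56.2%. The il2rb-negative trbc1 cells came from the same library, so their share includes any free RNA counted in cells, at a median depth of 3162 UMIs against 3847.

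Chemokine receptor genes split. cxcr3.1 (ENSDARG00000007358), a receptor gene of activated T cells, was at 163 CPM (84 UMIs) in the members against 22 UMIs in il2rb-negative trbc1 cells (ratio 4.21, 2.61 to 7.07) and 1 UMI in signature-high il2rb cells. ccr9a, whose mammalian counterpart guides lymphocytes to the gut and thymus, was abundant in every scale group, at 2245 in the members, 3945 in il2rb-negative trbc1 cells and 3495 in signature-high il2rb cells. cxcr4a was at 92.9 against 223 and ccr7, a receptor for entry into lymphoid tissue, at 38.7 against 112. Of the 5 chemokine receptor genes compared with il2rb-negative trbc1 cells, 1 was over 2-fold higher and 2 over 2-fold lower. Their median log2 ratio was -0.81. The shares among all genes compared were 11.3% higher and 3.59% lower.

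Granzyme and NK-lysin RNA was present in a minority of members. nkl.1, an NK-lysin gene whose current symbol is nkl.2, was at 466 CPM in 31 members (24.4%), against 65.0 in il2rb-negative trbc1 cells (ratio 7.18, 5.06 to 10.4), 73.7 in signature-high il2rb cells and 1035 in the marrow cells. It had a UMI in 2.73% of il2rb-negative trbc1 cells, at a median depth of 3162 UMIs against 3847. gzmk was at 94.8 against 80.8 in il2rb-negative trbc1 cells, a ratio of 1.17 whose interval (0.77 to 1.8) spans equality. gzm3.3 was at 87.1 against 10.5 (ratio 8.27, 3.52 to 23.7). gzma was at 52.3 and gzm3 at 50.3 in the members, against 5.27 and 8.78. Any of these 4 granzyme genes was found in 50 members. Granzyme and NK-lysin genes of zebrafish are close copies of one another, so reads could be assigned between family members. nkl.1 and gzmk occurred together in 1 cell, and 66 members held none of nkl.1, gzmk, gzma, gzm3 and gzm3.3. The perforin gene prf1.1 had 17 UMIs in 11 members. tbx21, which encodes the T-bet factor of cytotoxic and type 1 cells, had 4 UMIs, and its relative eomesa had none.

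Outside these families, the genes with the widest ratios to il2rb-negative trbc1 cells included several without an annotated name. si:dkey-21e2.11 was at 228 CPM in 20 members and at 0 in the comparison cells, at least 34.7-fold higher. prkca, which encodes protein kinase C alpha, was at 184 and at 0, at least 27.8-fold higher. ponzr6 was at 211 against 3 UMIs (ratio 40.1, 13.3 to 197), pxna, which encodes the adhesion adaptor paxillin, at 188 against 3 UMIs (ratio 35.6, 11.8 to 176), and si:dkey-21e2.12 (ENSDARG00000095729) at 209 against 10.5. zgc:77517, a keratin of simple epithelia under the current symbol krt18b, was at 130 CPM in 19 members and had 1 UMI in the comparison cells. The 10 genes named by size of ratio in this direction also hold ccl38a.5, ccl38.6, ccl36.1 and csf2rb.

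Several regulators and signalling genes were higher as well. zbtb32, a zinc finger repressor gene, was at 346 against 28.1 (ratio 12.3, 7.39 to 22.0), kdm2ba, a histone demethylase gene, at 199 against 10.5, and syk, a kinase downstream of immune receptors, at 931 against 246 (ratio 3.79, 3.13 to 4.61). il34, a cytokine gene for macrophages and their kin, was at 166 against 26.3 (ratio 6.32, 3.63 to 11.8). Of 15 lymphocyte transcription factors compared, zbtb32, id2a and stat4 were over 2-fold higher and gata3, bcl11ba and zbtb16a over 2-fold lower. Their median log2 ratio was -0.33. Among all genes compared, 11.3% were higher and 3.59% lower. id2a, an inhibitor of E proteins, was at 110 against 24.6 and stat4, which relays interleukin-12, at 92.9 against 19.3. The id2a difference lay mostly in the 26 members with csf2rb, described below, which held 41 of its UMIs. The other 101 members held 16, at 42.6 CPM.

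Lower in the members were genes tied to other T cell programmes. cd4-1 was at 11.6 against 102 (8.77-fold lower, 3.79 to 24.9), gata3, the factor of type 2 cells, at 13.5 against 82.5, zbtb16a, the PLZF factor of innate-like T cells, at 11.6 against 116, and bcl11ba, a T cell identity factor, at 65.8 against 330. The receptor gene adgrg3 was at 40.6 against 244 and si:dkey-11f4.20 at 69.7 against 348. si:dkey-1h24.6 and si:ch211-214p13.9 were each at 3.87 CPM, from 2 UMIs, against 130 and 86.0 (33.6-fold lower, 8.97 to 282, and 22.2-fold lower, 5.83 to 189). The differences in rergla, CT030012.1 and adgrg3 depended on which comparison cells were used. Without the comparison cells that held 2 or more signature UMIs, their log2 ratios were 0.15, -0.21 and -0.97, against -3.13, -2.70 and -2.42 with all 183. Of these 3 genes, adgrg3 thus stayed lower in the members, by just under 2-fold. With the rule and levels read on cells thinned to 1000 UMIs, gata3 turned to 0.11 and zbtb16a stood at -0.57 on the log2 scale, so neither was past 2-fold. rergla and CT030012.1 were at 0.017 and -0.042 there. il7r, the interleukin-7 receptor, was at 81.3 against 248 (3.05-fold lower, 2.14 to 4.41), and itgae.2, an integrin that binds epithelial cadherin, at 143 against 469 (3.27-fold lower, 2.52 to 4.29). Of 8 egress and residency genes compared, 4 were over 2-fold lower (itgae.2, ccr7, klf13 and zfp36l1a) and none higher, with a median of -0.98. Of 9 genes of the T cell receptor complex and its proximal kinases none was over 2-fold higher and 1 was lower, with a median of -0.44. Among all genes compared, 11.3% were over 2-fold higher and 3.59% lower.

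**Figure D2:**
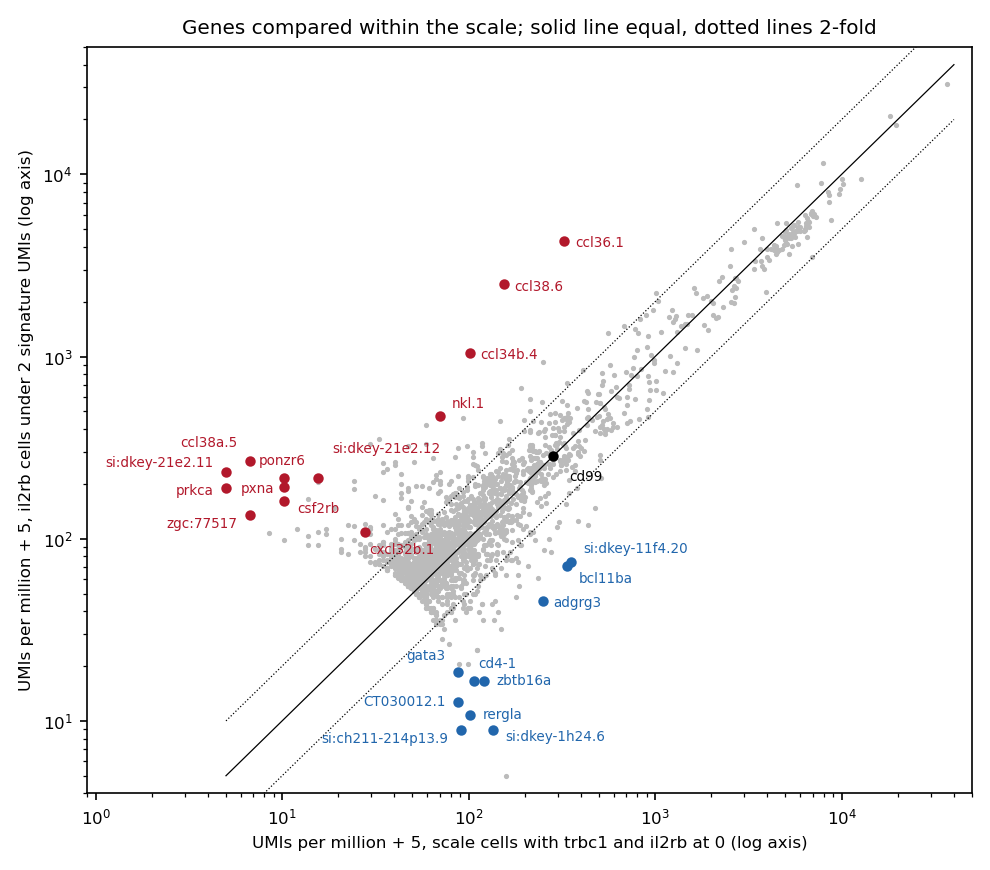
Each point is 1 gene, by its CPM plus 5 (log axes) in il2rb-negative trbc1 cells of the scale (horizontal) and in signature-low il2rb cells (vertical), from 1 library; il2rb, trbc1 and the signature genes are left out. Only labelled genes are coloured, red where over 2-fold higher in signature-low il2rb cells and blue where lower. All other genes are grey, also those past 2-fold. cd99 (black) lies on the line of equality, at 277 and 281.

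Ribosomal protein RNA was lower in the members, at 353798 CPM against 402568 in il2rb-negative trbc1 cells, which shifts all other genes upward by a common factor. With totals that leave out mitochondrial and ribosomal protein genes, 170 genes were over 2-fold higher and 101 lower, so the higher ones made up 62.7% of the called genes in place of 75.9%, and the median log2 ratio was 0.07. Cell cycle genes were at 1730 CPM against 881, with tubb2b, stmn1a and tuba8l, which concern microtubules, over 2-fold higher among 6 compared and none lower. The 26 members with csf2rb, described below, held 486 of the 894 UMIs of this list, at 3444 CPM against 1086 in the other members, and the 76 members with neither csf2rb nor icn were at 785, below the 881 of il2rb-negative trbc1 cells. Of 21 AP-1 and immediate early genes, 5 were over 2-fold higher and 1 lower. With all genes in the totals, 11.3% of all genes compared were higher and 3.59% lower. Keratinocyte markers, at 685 against 132 CPM, moved with these differences, and their part in them was not tested.

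Beside the signature-high il2rb cells of the same library, 108 of 1338 genes compared (8.07%) were over 2-fold higher in the members and 74 (5.53%) over 2-fold lower, with a median log2 ratio of -0.03. The signature-high group is small, and adding counts in proportion to the groups' UMI totals gave 134 and 55, or 70.9% higher in place of 59.3%. All 5 chemokine ligands compared were again higher, with a median of 1.64. They too had entered on the UMIs of both groups together. ccl36.1 was higher by 9.78-fold (7.73 to 12.5), ccl34b.4 by 4.84-fold (3.44 to 7.03) and ccl38.6 by 3.19-fold (2.66 to 3.86). BX005103.1, a chemokine gene with the current symbol ccl33.3 that the list by name leaves out, was at 463 against 885. si:dkey-21e2.11, si:dkey-21e2.12 and prkca were at 0 in the signature-high cells, at least 9.92-fold, 9.07-fold and 7.96-fold higher in the members. si:dkey-10h3.2 was at 182 and at 0, at least 7.87-fold higher, and was found in 44 members. icn, which encodes the calcium-binding protein ictacalcin of fish skin, was at 457 against 18.4 from 3 UMIs (ratio 24.8, 8.38 to 121), si:ch211-207g17.3 at 325 against 12.3, and zbtb32 at 346 against 30.7. si:ch211-191c10.1 and zgc:77517 were at 0 in the signature-high cells, at least 6.16-fold and 5.57-fold higher in the members. With the rule and levels read on cells thinned to 1000 UMIs, 6 of these 10 genes were no longer past 2-fold: the log2 ratios were -0.24 for si:dkey-21e2.11, 0.08 for si:dkey-21e2.12, 0.57 for prkca, 0.99 for si:ch211-207g17.3, and 0.34 for both si:ch211-191c10.1 and zgc:77517.

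Among the genes lower than in signature-high il2rb cells were 2 immune-type receptor genes of the NITR family, to which nitr4a of the signature belongs. Signature-high cells were chosen partly on nitr4a, so this difference is not independent of the choice. Of 35 NITR and DICP genes only these 2 were compared. They entered mainly on 53 and 50 UMIs of signature-high cells, against 9 and 21 in the members. nitr5 was at 17.4 against 326 (18.7-fold lower, 9.14 to 43.1) and nitr6b (ENSDARG00000110751) at 40.6 against 307 (7.56-fold lower, 4.46 to 13.2). The NITR family resembles mammalian natural killer receptors, and reads can be split among their close copies. cysltr1, a receptor for cysteinyl leukotrienes, was at 27.1 against 221, and il7r at 81.3 against 369 (4.53-fold lower, 3.01 to 6.89). si:dkey-262k9.2 was at 283 against 1149 and was the most abundant of the 10 named. The others were adgrg3 at 40.6 against 301, si:dkey-11f4.20 at 69.7 against 455, si:ch211-222k6.3 at 42.6 against 326, traf3ip2l at 50.3 against 307 and mkrn1 at 38.7 against 215. trbc1 (FP236356.1) did not separate them, at 848 in the members and 774 in the signature-high cells (ratio 1.1, 0.90 to 1.35). il34 and stat4, higher than in il2rb-negative trbc1 cells, were near the signature-high level, at 166 against 129 and 92.9 against 104.

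The marrow cells chosen by the same rule came from another tissue and another library. They were counted with Cell Ranger 4 in place of 6.0.0 and had a higher minimum, 1394.89 UMIs against 500. The tissue, the library and the counting software cannot be told apart. Of 3437 genes compared, 492 (14.3%) were over 2-fold higher in the scale and 64 (1.86%) over 2-fold lower, with a median log2 ratio of 0.41. Adding counts in proportion to the groups' UMI totals gave 386 higher and 92 lower, or 80.8% higher, with a median of 0.31. Ribosomal protein RNA was at 353798 CPM in the scale cells and 435769 in the marrow cells. Without mitochondrial and ribosomal protein genes in the totals, 306 were higher and 97 lower, or 75.9% higher in place of 88.5%, and the median was 0.21. Chemokine ligands and genes of killing differed in direction. ccl36.1 was 2.23-fold higher (2.11 to 2.35) and ccl38.6 3.39-fold higher (3.14 to 3.67) in the scale cells, while ccl34b.4, at 1041 against 1257, was below its marrow level. Of 6 ligands compared 5 were over 2-fold higher in the scale, with a median of 1.46. Totals without mitochondrial and ribosomal protein genes lower every ratio here by the same factor, and ccl36.1, at 2.23-fold, lies close to the 2-fold limit. gzmk was at 94.8 against 333 (3.51-fold lower, 2.62 to 4.8), gzma at 52.3 against 162 (3.09-fold lower, 2.08 to 4.77), nkl.1 at 466 against 1035, and the perforin gene prf1.9 at 11.6 against 145 (12.5-fold lower, 5.65 to 34.3). nkl.4 was at 0 in the scale cells and 173 in the marrow cells, at least 24.1-fold lower. gzm3.3, at 87.1 against 72.4, did not follow them (ratio 1.2, 0.84 to 1.7). Of 10 cytotoxic markers compared, 5 were over 2-fold lower in the scale and 1, syk, over 2-fold higher. Here too genes entered on the UMIs of both groups together, and nkl.4 entered through its 299 UMIs in the marrow cells.

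Genes of the egress and residency list differed in both directions. s1pr4, a receptor for the exit signal sphingosine-1-phosphate, had 1 UMI in the scale cells and 264 in the marrow cells (79.0-fold lower, 14.1 to 3131). klf3 and p2rx1, an ATP-gated channel gene, were at 0 in the scale cells, at least 11.9-fold and 12.7-fold lower. flna, the actin cross-linker filamin A, went the other way, at 536 against 43.4 (ratio 12.3, 9.54 to 16.2), as did rgs13 at 391 against 101. High flna was not particular to the members among scale cells. It was at 639 in il2rb-negative trbc1 cells under 2 signature UMIs and at 1040 in il2rb cells with 6 or more. Among all genes compared with the marrow cells, 14.3% were over 2-fold higher in the scale and 1.86% lower. Of 13 egress and residency genes compared, 2 were over 2-fold higher in the scale and 5 over 2-fold lower, with a median of -0.57. In that list s1pr4, klf3 and p2rx1 entered the comparison through the marrow cells, on 264, 149 and 158 UMIs there. Outside that list, the transcription factor genes hic1 and epas1a were at 0 in the scale cells, at least 8.61-fold and 8.2-fold lower. With the rule and levels read on cells thinned to 1000 UMIs, hic1 was at -0.57 on the log2 scale, not past 2-fold. ccr9a was at 2245 in the scale cells and 524 in the marrow cells, 4.29-fold higher (3.92 to 4.68).

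The other genes named as higher in the scale cells included si:ch73-343g19.4, at 112 against 0 (at least 50.9-fold), and ms4a17c.1 at 194 against 4.05. adrb2a, the beta-2 adrenergic receptor, was at 186 against 4.63 and the membrane protein gene stom at 172 against 6.37. BX936298.2 was at 94.8 against 4.05 and odc1, the first enzyme of polyamine synthesis, at 114 against 5.21. si:dkeyp-27c8.2 (mdp1) was at 114 against 8.11 and zgc:136605 (plp2a) at 263 against 22.6. BX005103.1 (ccl33.3), a chemokine gene, was at 463 against 24.3 but was found in 13 members, and 1 cell gave 39.7% of its UMIs. Signature-high il2rb cells held more of it, at 885. Globin features were lower: hbba1 (ENSDARG00000089087 and ENSDARG00000097238), hbaa1 and si:ch211-5k11.8, a RefSeq synonym of which is hbaa1.2, had 1, 0, 0 and 0 UMIs in the scale cells. si:ch211-5k11.8 had 235 UMIs in the marrow, in 153 of the 363 cells. With the rule and levels read on cells thinned to 1000 UMIs, hbba1 (ENSDARG00000097238) and hbaa1 were at -0.22 and -0.76 on the log2 scale, not past 2-fold. Erythroid markers summed to 277 CPM in the marrow cells and 3.87 in the scale cells, and their part in other differences was not tested. AP-1 and immediate early genes summed to 8963 CPM in the scale cells and 5751 in the marrow cells. Of 24 compared, 13 were over 2-fold higher, against 14.3% of all genes compared. Among them were jdp2b at 145 against 16.2 and junba at 194 against 57.9. Heat shock and dissociation genes summed to 8081 and 6700 CPM, and the part of tissue dissociation in these differences was not tested. The thymus cells meeting the rule, 25 in all, held no UMI of ccl36.1, ccl38.6, ccl34b.4, ccl38a.5, cxcl32b.1 or nkl.1. For each the upper 95% limit was 22.9 CPM.

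The members were not uniform. Splitting them by csf2rb, a division chosen after the values were seen, gave 26 cells with it and 101 without, at median depths of 5131 and 3374 UMIs. The values below describe the divided cells themselves. Of 1013 genes compared, 94 (9.28%) were over 2-fold higher in cells with csf2rb and 88 (8.69%) over 2-fold lower, with a median log2 ratio of 0.13. Adding 3 counts to each group in place of counts in proportion to depth gave 118 and 68, or 63.4% higher in place of 51.6%. Weighting each cell the same gave 68 and 98 (41% higher), and totals without mitochondrial and ribosomal protein genes gave 73 and 102 (41.7%).

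Cells with csf2rb shared a set of genes. stim1a, the calcium sensor of the endoplasmic reticulum, had a UMI in all 26 and in 28 of the 101 others, at 1070 against 170 CPM (ratio 6.28, 4.66 to 8.55). prkca was at 553 against 45.3 (ratio 12.2, 7.16 to 22.0), pxna at 546 against 53.3, and si:dkey-21e2.12 (ENSDARG00000095729) at 652 against 42.6. All 3 were also named against il2rb-negative trbc1 cells, and the 26 cells held 78 of the members' 95 prkca UMIs, 77 of 97 pxna UMIs and 92 of 108 si:dkey-21e2.12 UMIs. si:dkey-21e2.11 was at 701 against 50.6, ponzr6 at 567 against 77.2, pycard, the inflammasome adaptor ASC, at 305 against 42.6, and si:ch211-214p16.2 at 574 against 95.9. id2a had a UMI in 16 of the 26 and 13 of the 101. The simple keratin pair also lay here: zgc:77517 at 411 against 24.0 (ratio 17.1, 8.44 to 39.4) and krt8 in 14 of 26 cells against 3 of 101. krt5 had 2 UMIs in the 26 cells and krt4 none. A further 15 members without csf2rb held prkca or pxna. With the rule and levels read on cells thinned to 1000 UMIs, which left 5 cells with csf2rb, the log2 ratios were -1.67 for ponzr6, -0.45 for pycard, 0.98 for prkca and 0.85 for si:dkey-21e2.11, so the last 3 were no longer past 2-fold and ponzr6 was past it in the other direction.

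Some chemokine and NK-lysin RNA was also higher in these cells. Of 5 chemokine ligands compared, ccl36.1, ccl38.6 and ccl38a.5 were over 2-fold higher and cxcl32b.1 over 2-fold lower, against 9.28% and 8.69% of all genes. ccl36.1 was at 7475 against 3142 CPM (ratio 2.38, 2.19 to 2.59), ccl38.6 at 3918 against 1949, ccl38a.5 at 645 against 117, cxcl32b.1 at 28.3 against 133 from 4 and 50 UMIs, and nkl.1 at 1056 against 245 (ratio 4.31, 3.3 to 5.65), in 17 of 26 cells against 14 of 101. dicp1.3-4, a diverse immunoglobulin domain receptor gene, was found in 14 of 26 and 8 of 101. gzmk had no UMI in the 26 cells, where 3 cells correspond to 11.5%, and was found in 24 of the 101, at a lower depth. Other granzyme RNA was present: gzm3.3 had 19 UMIs in the 26 cells, of 45 in all members. Any of 6 granzyme genes was found in 13 of the 26 cells and 39 of the 101. zbtb32 was at 779 against 184, and trbc1 (FP236356.1) at 879 against 836, a ratio of 1.05 (0.85 to 1.3).

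Low in cells with csf2rb were runx3, flna and genes of the other members. runx3, a factor of cytotoxic and tissue-resident T cells, had a UMI in 2 of 26 cells and 72 of 101, at 35.4 against 626 CPM (17.7-fold lower, 7.46 to 54.9). flna was at 56.7 against 716 (12.6-fold lower, 6.32 to 29.6), spint1a, a serine protease inhibitor gene of epithelia, at 21.3 against 418, itgae.2 at 21.3 against 189, blk at 21.3 against 232 and ccr9a at 772 against 2799. The median depth was 5131 UMIs with csf2rb and 3374 without, and its part in these differences was not tested. icn had 3 UMIs against 233, stom 1 against 88, zgc:136605 2 against 134 and si:dkey-109a10.2 2 against 123. si:dkeyp-27c8.2, si:ch73-343g19.4 and svila were at 0, at least 5.82-fold, 5.72-fold and 5.32-fold lower. With the rule and levels read on cells thinned to 1000 UMIs, si:ch73-343g19.4 was at -0.93 on the log2 scale, not past 2-fold. With cells thinned to 1000 UMIs, runx3 had a UMI in 3.85% of cells with csf2rb and 40.9% of those without, flna in 3.85% and 38.7%, stim1a in 50% and 11.8%, and prkca in 30.8% and 2.15%.

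**Figure D3:**
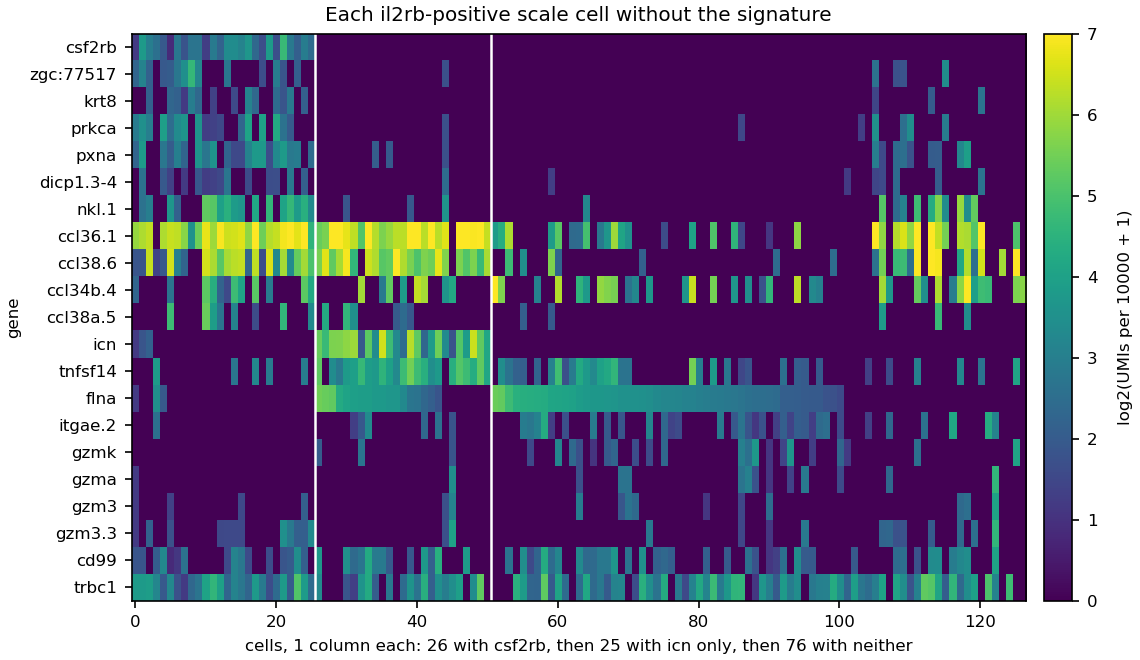
Level of 21 genes (rows) in each of the 127 signature-low il2rb cells (columns), as log2 of UMIs per 10000 plus 1; white lines divide 26 cells with csf2rb, 25 with icn only and 76 with neither, and cells within a block run by flna, then by depth, with icn cells first in the first block. ccl36.1 fills the first blocks, in 25 of 26 and 24 of 25 cells, while gzmk and itgae.2 lie mostly in the last.

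The marrow offered cells that the split had not used. Among the 363 marrow cells, 23 held csf2rb, at a median of 4446 UMIs against 4456.5 in the other 340. Of the 10 genes named as higher with csf2rb in the scale, 8 had 50 UMIs in the marrow, and 7 of these were over 2-fold higher there too, where 5.61% of 2586 genes were. They were si:dkey-21e2.11 (603 against 22.9), si:dkey-21e2.12 (638 against 55.8), prkca (402 against 36.0), ponzr6 (297 against 29.8), pxna (280 against 93.0), stim1a (691 against 142) and pycard (131 against 41.5). si:ch211-214p16.2, at 472 against 253, was compared and stayed under 2-fold. zgc:77517 had 39 UMIs, too few for the comparison, and stood at 297 against 3.1. id2a was at 26.2 against 26.0. Of the 10 genes named as lower, 6 were compared and 1 was over 2-fold lower, against 10.4% of all genes compared. That gene was spint1a, with no UMI in the 23 marrow cells with csf2rb and 82 UMIs in the others.

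**Figure D4:**
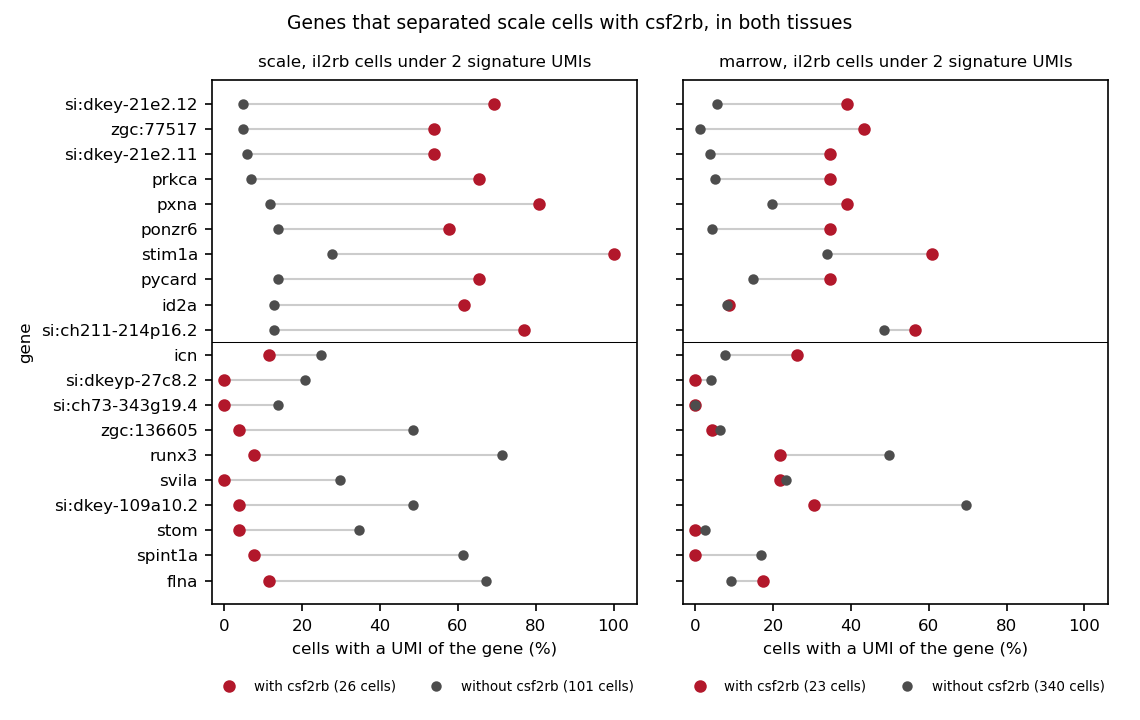
Share of cells with a UMI (percent) of the 20 genes named in the split by csf2rb, in scale cells (left, 26 with and 101 without csf2rb) and marrow cells (right, 23 and 340) meeting the same rule; red marks cells with csf2rb and grey those without. In the upper 10 rows prkca is in 17 of 26 scale cells with csf2rb and 7 of 101 without, and most of these rows show red to the right in the marrow as well.

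A second set of members held icn. It was present in 28 cells (median depth 3070.5 UMIs) and absent from 99 (median 4277), and 3 of the 28 also held csf2rb. This split too was chosen after the values were seen. Of 1013 genes compared, 144 (14.2%) were over 2-fold higher and 61 (6.02%) over 2-fold lower in the icn cells, with a median log2 ratio of 0.27. That count depends on the scaling. With totals free of mitochondrial and ribosomal protein genes, 75 were higher and 122 lower (38.1% higher in place of 70%). With 3 counts added to each group 205 were higher and 33 lower (86.1%). Ribosomal protein genes had a median log2 ratio of -0.67, and their part alone was not tested.

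Cells with icn shared genes of their own. si:dkeyp-27c8.2 was at 642 against 11.6 CPM (ratio 55.6, 22.4 to 178), fa2h, a fatty acid 2-hydroxylase gene, at 559 against 11.6 (ratio 48.4, 19.3 to 156), and ms4a17c.1 at 939 against 48.5 (ratio 19.4, 11.8 to 33.0). fcer1gl, related to the gamma chain of Fc receptors, was in 18 of 28 cells and 4 of 99. tnfsf14, which encodes the ligand LIGHT of the tumour necrosis factor family, was at 1486 against 254 (ratio 5.85, 4.49 to 7.62), in 23 of 28 cells and 38 of 99. Also named were si:ch73-343g19.4, stom at 702 against 69.4, mef2aa at 369 against 43.9, si:ch73-264p11.1 at 606 against 87.8 and si:ch211-136m16.8 at 868 against 139. ccl36.1 was at 8241 against 3565 and ccl38.6 at 5089 against 1981, so chemokine RNA was high in cells with icn as it was in cells with csf2rb. runx3 (1225 against 317) and flna (963 against 453) were also higher, unlike in the csf2rb cells. krt8 was at 0 in the 25 cells with icn and no csf2rb. Reading the rule and levels on cells thinned to 1000 UMIs left 12 cells with icn. There tnfsf14 and si:ch73-343g19.4 were at 0.79 and 0.77 on the log2 scale, no longer past 2-fold.

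Lower in the icn cells were nkl.1, at 131 against 532 (4.06-fold lower, 2.23 to 8.26), and BX005103.1 (ccl33.3), at 0 against 552, at least 12.5-fold. socs3a, a feedback inhibitor of cytokine signals, was at 0 against 250, at least 5.59-fold lower, and was found in 43 of the 99. si:busm1-266f07.2 (mhc2daa), a class II histocompatibility gene, had 2 UMIs against 126. The other 6, si:ch211-196f2.6, si:ch211-191c10.1, ascc1, si:ch211-132p1.3, ivns1abpa and ada, were at 11.9 or 23.8 against 116 to 206 CPM, from 1 or 2 UMIs each. With the rule and levels read on thinned cells, si:ch211-132p1.3 and ivns1abpa were at -0.80 and -0.69 on the log2 scale, not past 2-fold. In the marrow, where 32 of the 363 cells held icn, 4 of the 10 higher genes were compared and none was over 2-fold higher (5.53% of 2585 genes were). Below the minimum of 50 UMIs, fa2h had 12 UMIs in the icn cells and 20 in the others (ratio 6.12, 2.73 to 13.1), fcer1gl 10 and 8 (ratio 12.7, 4.53 to 37.1) and stom 3 and 8 (ratio 3.82, 0.65 to 15.9). Of 9 lower genes compared 1 was over 2-fold lower, si:ch211-196f2.6 (6.62% of genes were). The 4 higher genes compared were mef2aa, si:ch73-264p11.1, si:ch211-136m16.8 and tnfsf14.

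The remaining 76 members held neither csf2rb nor icn, at a median of 4023 UMIs. ccl36.1 was found in 34 of them, at 1903 CPM, and ccl38.6 in 21, at 1082, while ccl34b.4, at 1128, was near its level over all members. They held 45 of the 49 gzmk UMIs, 22 of the 27 gzma UMIs and 63 of the 74 itgae.2 UMIs. gzm3.3 was not gathered there: of its 45 UMIs, 19 lay in the 26 cells with csf2rb and 7 in the 25 with icn only. flna was found in 50 of the 76, runx3 in 49, cxcr3.1 in 29 and il7r in 22. Since 101 of the 127 members held csf2rb, icn or flna, 26 showed none of the 3.

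At the edges of the rule the values ran as follows. The 31 members with 1 il2rb UMI had csf2rb at 62.0 CPM, ccl36.1 at 3647 and nkl.1 at 841, and the 96 with more il2rb had 183, 4516 and 362. The 4 members with 1 signature UMI had ccl36.1 at 4427 and ccl38.6 at 5001. Just outside, the 8 cells with 2 to 5 signature UMIs had ccl36.1 at 1249 and ccl38.6 at 2685, against 2362 for ccl38.6 in members with no signature UMI. The 35 cells with 6 or more had 245 and 314.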

How the data were processed

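The authors deposited unnormalised UMI count tables (genes by barcodes), made with Cell Ranger 6.0.0 for thymus and scale and version 4 for marrow, per the file headers. The submitters' processing notes name GRCz11, Cell Ranger 6.0.0 and Seurat 4.3.0. Barcodes with at least 500 UMIs, 250 genes and at most 10% mitochondrial counts were kept; marrow barcodes also needed 1394.89 UMIs, the 99th percentile of the 3000 largest barcodes divided by 10. Doublets were left in; Scrublet (expected rate 0.05) was an alternative. UMIs were summed over cells and divided by the group's total, per 1000000. Intervals are 95% exact Poisson (levels), Clopper-Pearson (shares) and conditional binomial (ratios). The floor is 3 counts. For genes at 0 in 1 group, a fold given as at least a value is the lower limit of the ratio's interval. A gene needed 50 UMIs in both groups together to be compared, and was counted past 2-fold with 3 counts added to each group (in the splits by csf2rb and icn, in proportion to depth). Named genes were the 10 widest ratios in each direction with a UMI in at least 10% of cells of the higher group and at most 50% of UMIs in 1 cell, rule genes left out; genes of the fixed families and lists were described beside them. With 1 library per tissue no test was run. The members and lists were chosen with earlier results of these data known. Python 3.11.15, numpy 2.4.6, scipy 1.17.1, pandas 2.3.3, scanpy 1.11.5 and matplotlib 3.10.9 were used. The counting step was tested on simulated data.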

Additional observations from a re-analysis of the deposited data

Results flagged for a closer look

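Of 454 scale barcodes, 36 had at least 500 UMIs and 250 genes but exceeded the mitochondrial limit of 10%, and they entered no comparison. They held 11 il2rb UMIs of 30733, which is 358 CPM (179 to 640), above the 97.6 CPM that a count of 0 allows. Of the 36 barcodes, 6 met the il2rb rule, at a median of 624.5 UMIs.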

How the results depend on the processing

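No paired analysis was possible because each tissue has 1 library. Of 174 recomputed main values under other settings, 133 stayed within 1.5 times or the counting error. Counts were labelled only as same or moved, so a reversal could be recorded for the csf2rb ratio alone, which did not reverse. The balance of higher and lower genes did turn under some settings, against signature-high cells and in the splits by csf2rb and icn. Requiring 2 il2rb UMIs gave 61 genes higher than in signature-high cells, and 58 lower with csf2rb than without. Reading the rule on cells thinned to 1000 UMIs left 63 members, with log2 ratios to il2rb-negative trbc1 cells of 1.98 for csf2rb and 0.38 for cd99. By construction that setting compares fewer genes from fewer cells. Its counts higher and lower were 22 and 8 against il2rb-negative trbc1 cells, 8 and 9 against signature-high cells, 61 and 10 against marrow cells, 1 and 17 for csf2rb and 13 and 33 for icn. In the same order, a minimum of 25 UMIs gave 449 and 135, 192 and 212, 1045 and 107, 209 and 196, and 355 and 149. No minimum gave 1335 and 482, 231 and 4649, 6333 and 118, 1003 and 879, and 1789 and 799. Without a minimum, the 3 counts added to each group raise genes of few UMIs in the group with fewer UMIs in all. The members held 516674 UMIs, signature-high cells 162800 and marrow cells 1727302. The 4649 and 6333 can thus hold genes placed past 2-fold by the added counts alone, and they do not measure differences between cells. Totals without mitochondrial and ribosomal protein genes gave 306 and 97 against marrow cells and 75 and 122 for icn. Comparison cells under 2 signature UMIs left 46 lower genes, and 3 counts added to each group left 33 lower for icn. Signs turned with thinning for rergla (0.017) and gata3 (0.11) against il2rb-negative trbc1 cells, si:dkey-21e2.11 (-0.24) against signature-high cells, and ponzr6 (-1.67) and pycard (-0.45) with csf2rb, and for rergla (0.15) with comparison cells under 2 signature UMIs. The cause was not tested. Of the named genes' values under other settings, 252 of 260, 214 of 220, 237 of 240, 215 of 220 and 216 of 220 stayed past 2-fold in the same direction, in the same order. Depth limits the small groups: 3 UMIs correspond to 35.7 CPM in the 28 cells with icn, 21.3 in the 26 with csf2rb, 18.6 in the 25 thymus cells and 18.4 in the 43 signature-high cells. No library could be left out, so no value here measures the spread between fish.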
